A study of Mus musculus with 17 samples.

Results

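The cytosolic ribosome is built from small and large subunit proteins, and their genes were read here across every deposited table of a mouse Parkinson's disease (PD) study. Members were the genes whose symbol starts with Rpl or Rps followed by a number, together with Rplp0, Rplp1, Rplp2 and Rpsa, and without the Rps6k kinases. Of 20328 genes listed in the RNA-seq table, 87 matched: 82 protein-coding genes (31 of the small subunit, 46 of the large subunit and 5 paralogs of ribosomal proteins) and 5 rows that are likely pseudogenes and are described apart. All 87 passed the filter on low counts, which kept 19300 genes. The cluster means of single-cell RNA-seq (scRNA-seq) listed 82 members among 26650 genes, the H3K27ac CUT&RUN table held 74 regions named for 45 members among 11424 regions, and the ATAC-seq table held regions named for 5 members among 3582.

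Wild-type (WT) ICR mice, an outbred stock, were compared in 3 groups. The study's methods describe the animals as adult females, and sham animals served as the control. The 6-OHDA group received a unilateral injection of the toxin 6-hydroxydopamine into the substantia nigra and then saline. The 6-OHDA+NDST3 group received the same lesion and, some days later, an AAV9 vector that expresses human NDST3, a heparan sulphate-modifying enzyme, from the CMV promoter. The RNA-seq table held 2 sham libraries, 1 6-OHDA library and 2 6-OHDA+NDST3 libraries from tissue labelled brain. The CMV promoter is not restricted to 1 cell type, the human transgene has no row of its own among the mouse genes, and the exact age at collection was not given in the sources used here.

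Ribosomal proteins assemble with ribosomal RNA into the 40S and 60S subunits, which join on an mRNA to translate it. Their mRNAs are among the most abundant of any cell, and most begin with a terminal oligopyrimidine (TOP) tract, an unbroken run of C and T bases from the transcription start through which the mTOR kinase and the RNA-binding protein LARP1 set their translation and stability. Ribosomal protein genes have left many processed pseudogenes in the genome, so that a read of such an mRNA can match several places.

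Total counts were between 51003699 and 70533326 per library, and the members took 1.21% and 1.13% of them in sham, 2.05% in 6-OHDA and 1.37% and 1.46% in 6-OHDA+NDST3. Levels are given as CPM, the count of a gene relative to the TMM-scaled total of its library, and a gene was called when edgeR's quasi-likelihood test gave a Benjamini-Hochberg adjusted p under 0.05 over all 19300 genes. The 6-OHDA group holds 1 library, so its spread was taken from the other groups, and nothing in the labels says that the libraries came from separate animals, so p-values measure only the spread between these libraries, which may be technical. The dopaminergic neuron markers were all detected, with summed levels of 987 and 963 CPM in sham, 184 CPM in 6-OHDA and 327 and 306 CPM in 6-OHDA+NDST3, and 10 of 10 fell in the 6-OHDA library. The second 6-OHDA+NDST3 library stood apart in choroid plexus markers, at 1171 CPM against 24.9 to 70.8 CPM in the others. In bulk tissue, fewer cells of a type and less RNA per cell cannot be told apart.

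The first comparison asked how the lesion changed ribosomal protein mRNAs. In the 6-OHDA library 73 of the 82 protein-coding members rose over sham and 0 fell, where 18.8% of all genes tested rose and 17.1% fell. The median log2 fold change of the members was 0.84, against -0.0025 over all genes. For 79 members the 6-OHDA library lay above both sham libraries, as it did for 45.3% of all genes. The rise was mostly smaller than 2-fold, since 17 members passed a fold of 2 with an unadjusted p under 0.05, a rule that 14.4% of all genes passed upward. Without either sham library edgeR called 0 members and 0 of all genes, while the members' median stayed at 0.88 without sham 1 and 0.80 without sham 2, with 70 and 72 higher at an unadjusted p under 0.05 without sham 1 and sham 2 (76 with both, where 24.6% of all genes were).

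**Figure D1:**
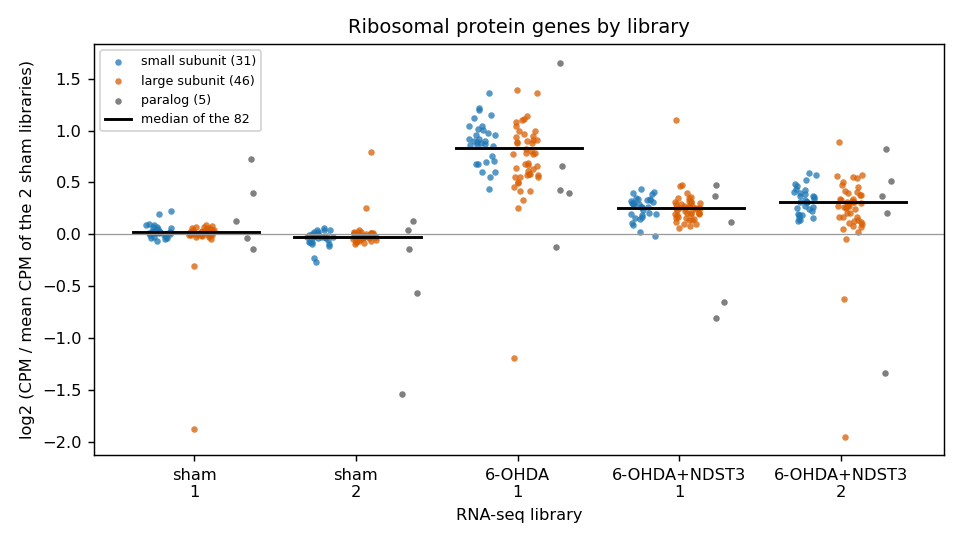
Each point is 1 ribosomal protein gene in 1 RNA-seq library, as the log2 of its CPM over the mean CPM of the 2 sham libraries, coloured by class (31 small subunit, 46 large subunit and 5 paralog genes), and the bar is the median of the 82 genes. The medians are 0.022 and -0.022 in sham, 0.84 in 6-OHDA and 0.26 and 0.31 in 6-OHDA+NDST3, and the low large-subunit point in sham 1, 6-OHDA and 6-OHDA+NDST3 2 is Rpl29.

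Of the small subunit proteins, 30 of 31 rose, with log2 fold changes over all 31 between 0.44 and 1.37 and a median of 0.90. Rps9, a protein of the 40S body that sits near the mRNA entry channel, had 221 and 201 CPM in sham, 543 CPM in 6-OHDA, and 277 and 317 CPM in 6-OHDA+NDST3. Its 6-OHDA library was more than 2-fold above either sham library and its groups did not overlap (log2 fold change 1.37 ± 0.14 SE, adjusted p = 0.0082). Rps18, a protein of the 40S head, had 30.7 and 27 CPM in sham, 67.1 CPM in 6-OHDA, and 39.0 and 39.0 CPM in 6-OHDA+NDST3, which gives 1.22 ± 0.12 (adjusted p = 0.0082). Rps12 rose by 1.2 ± 0.13 and Rps4x, the X-linked copy of S4, by 1.15 ± 0.14 on the log2 scale. Rps6, the protein that S6 kinases phosphorylate downstream of mTOR, rose less, by 0.55 ± 0.11 (adjusted p = 0.020), from 237 and 228 CPM in sham to 342 CPM in 6-OHDA. The smallest called rise of this subunit was that of Rps15a, at 0.44 ± 0.10. Rps3a1 was the member that missed the threshold, at 0.96 ± 0.30 (adjusted p = 0.059), with 262 and 187 CPM in sham and 437 CPM in 6-OHDA.

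Of the large subunit proteins, 40 of 46 rose, with a median log2 fold change of 0.77 over all 46. Rpl39, a short protein of the peptide exit tunnel, had 40.9 and 41.3 CPM in sham, 108 CPM in 6-OHDA, and 52.3 and 61.0 CPM in 6-OHDA+NDST3. Both sham values lay close together and the 6-OHDA value was more than 2-fold above them (log2 fold change 1.39 ± 0.12, adjusted p = 0.0082). Rplp0, the base of the P-stalk that recruits the GTPase factors of translation, had 197 and 178 CPM in sham, 482 CPM in 6-OHDA, and 259.9 and 275 CPM in 6-OHDA+NDST3 (log2 fold change 1.36 ± 0.12, adjusted p = 0.0082). Its stalk partners Rplp1 and Rplp2 rose by 0.78 ± 0.11 and 0.94 ± 0.10. Rpl41, the smallest ribosomal protein, rose by 1.14 ± 0.12, and Rpl10a, the protein of the L1 stalk on the opposite side of the subunit, by 1.10 ± 0.16. Rpl5 and Rpl11, which carry the 5S RNA and bind the p53 inhibitor Mdm2 when ribosome assembly fails, rose by 0.96 ± 0.12 and 0.67 ± 0.10. The smallest called rises were those of Rpl37 (0.42 ± 0.10), Rpl8 (0.42 ± 0.11) and Rpl38 (0.46 ± 0.11).

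The 6 large subunit genes without a call were of 2 kinds. Rpl3 and Rpl14 had tight replicates and small differences of 0.25 ± 0.11 (adjusted p = 0.14) and 0.33 ± 0.10 (adjusted p = 0.057). Rpl3, for example, had 331 and 324 CPM in sham and 391 CPM in 6-OHDA. Rpl7a, Rpl26, Rpl30 and Rpl29 instead had libraries of 1 group that differed. Rpl30 had 51.1 and 75 CPM in sham against 94.6 CPM in 6-OHDA, Rpl26 had 128 and 205 CPM in 6-OHDA+NDST3 against 165 CPM in 6-OHDA, and Rpl7a had 165 and 89.1 CPM in 6-OHDA+NDST3. Their log2 fold changes against sham were 0.59 ± 0.23, 0.57 ± 0.28 and 0.91 ± 0.35, and Rpl29 was the only large subunit gene with a negative value, -1.19 ± 1.56.

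The paralogs, which replace or accompany a ribosomal protein in some cells, differed from each other. Rps27l, a paralog of Rps27 that p53 is known to induce, had the largest log2 fold change of all 82 members, 1.65 ± 0.22 (adjusted p = 0.0090), with 8.87 and 7.33 CPM in sham, 25.5 CPM in 6-OHDA, and 11.3 and 14.3 CPM in 6-OHDA+NDST3. Its canonical partner Rps27 rose by 1.12 ± 0.10, from 65.4 and 68.9 CPM to 146 CPM. Rpl22l1 rose by 0.66 ± 0.15 and Rpl7l1 by 0.43 ± 0.11. Rpl3l, a paralog of Rpl3 known from striated muscle, and Rpl32l were near the limit of detection, with at most 20 and 18 counts in any library, and were not called (log2 fold changes 0.42 ± 0.77 and -0.067 ± 1.02). Compared per length, the highest mean levels over the 5 libraries were those of Rplp1 (463 FPKM), Rps15 (417 FPKM) and Rps9 (412 FPKM), and the lowest those of Rpl3l (0.129 FPKM), Rpl32l (0.253 FPKM) and Rpl7l1 (17.6 FPKM). Over the 82 members the log2 fold change had a Spearman correlation of 0.040 with mean FPKM and of -0.16 with transcript length, given as a description of genes that share the same libraries.

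Since the TOP tract is the sequence most of these mRNAs are known to share, the bases around each start were read from RefSeq promoters of GRCm38.p6, where 62 of the 82 members matched with 74 starts among 32851. The 5 members with the largest rise among those matched are shown first, with Rpsa, the laminin receptor protein of the small subunit, which had 462 and 346 CPM in sham and 733 CPM in 6-OHDA (0.86 ± 0.22). Each line holds the 15 bases before the annotated start and the 15 bases from it, 5′ to 3′ on the gene's strand, with the longest run of C and T in capitals.
Rps27l, chr9:66946071-66946100, + strand: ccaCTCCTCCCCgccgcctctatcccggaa
Rpl39, chrX:37085208-37085237, - strand: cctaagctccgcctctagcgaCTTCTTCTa
Rps9, chr7:3704026-3704055, + strand: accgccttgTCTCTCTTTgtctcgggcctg
Rplp0, chr5:115559452-115559481, + strand: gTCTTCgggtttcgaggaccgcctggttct
Rps18, chr17:33955651-33955680, - strand: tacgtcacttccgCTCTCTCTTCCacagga
Rpsa, chr9:120127751-120127780, + strand: gtgggttatttaaggacgtcaTTTCCggcc
Of these 6, Rps18 has a run of at least 5 pyrimidines from its annotated first base (9 bases) and the other 5 do not. The members with the longest such runs, chosen after their values were seen, follow.
Rpl27a, chr7:109519180-109519209, + strand: gacttcgtgagCTCCTCCCTTTTCCCTTTC
Rpl15, chr14:18270972-18271001, - strand: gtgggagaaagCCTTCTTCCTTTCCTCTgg
Rpl35, chr2:39005117-39005146, - strand: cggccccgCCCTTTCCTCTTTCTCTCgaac
Rps10, chr17:27635230-27635259, - strand: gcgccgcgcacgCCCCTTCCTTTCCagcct
In Rpl27a, Rpl15, Rpl35 and Rps10 the run goes on for 16, 13, 11 and 10 bases from the first base, and Rpl32l, which had few counts and is not shown, also has 10.

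A run of at least 5 pyrimidines from the first base was found in 23.0% of the members' starts and 4.44% of all starts, and a run of at least 8 within 15 bases on either side in 39.2% and 12%. The 17 members with a run from the first base had a median log2 fold change of 0.68 in 6-OHDA against sham (14 called), and the other 45 matched members one of 0.90 (42 called). The letters CTTTC, searched on the gene's strand, occurred within 15 bases of 21.6% of member starts and 4.05% of all. In the 300 bases around the start, searched on both strands, CCGGAA, the core of ETS family sites, was in 47.3% of member promoters, 14.9% of all promoters and 22.2% of those of genes tested by RNA-seq. AAGATGG, part of the YY1 motif, was in 16.2%, 6.34% and 6.37% of these, and CACGTG, the E-box that Myc binds, in 10.8%, 7.15% and 9.02%. TATAAA, in 10.8% of member promoters, was in 13.6% of all and 8.33% of those of genes tested, so the members lie below the one and above the other. GGGCGG was in 59.5%, 35.7% and 55.4%. Each match describes letters in this window, and an annotated start can lie some bases from the one used in a cell.

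The second comparison asked how the NDST3-treated PD model differed from the untreated one. Against 6-OHDA, 46 of the 82 members fell and 0 rose, where 6.59% of all genes fell and 9.06% rose. The median log2 fold change was -0.54, against 0.0029 over all genes, and 22 of 31 small subunit genes, 23 of 46 large subunit genes and 1 of 5 paralogs fell. The largest called falls were those of Rps27l (-0.99 ± 0.22, adjusted p = 0.046), Rpl39 (-0.93 ± 0.13, adjusted p = 0.032), Rpl10a (-0.90 ± 0.16), Rps9 (-0.87 ± 0.14) and Rpl41 (-0.86 ± 0.12). Rpl10a, for instance, had 281 CPM in 6-OHDA and 168 and 133 CPM in 6-OHDA+NDST3. Both 6-OHDA+NDST3 libraries were below the 6-OHDA library for 79 members, as for 43.2% of all genes. The 2 members with a positive value were Rpl29 (1.45 ± 1.58) and Rpl26 (0.012 ± 0.28), neither of them called, and Rpl7a, with -1.02 ± 0.35, was not called either (adjusted p = 0.10). This comparison uses the same 6-OHDA library as the first, so the 2 are not independent. Its calls fell to 0 without sham 1, sham 2 or the first 6-OHDA+NDST3 library, where 0, 0 and 1 of all genes were called and the members' median was -0.54, -0.54 and -0.52, with 59 to 60 members lower at an unadjusted p under 0.05 (72 with all libraries, where 18.5% of all genes were), and to 0, also over all genes, with the sham libraries left out of the fit.

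Set against sham, no member of the 6-OHDA+NDST3 group was called by edgeR, as was the case for 0.0% of all genes, while 48 members were higher at an unadjusted p under 0.05, a rule that 9.82% of all genes passed upward. DESeq2 called 9 members higher and 1048 of all genes in either direction, and limma on FPKM called 0 members and 0 genes, with 45 members higher at an unadjusted p under 0.05 by each. The median log2 difference was 0.28. Both 6-OHDA+NDST3 libraries were above both sham libraries for 74 of the 82 members, as for 26.5% of all genes. The largest differences were those of Rps27l (0.66 ± 0.18, adjusted p = 0.24), Rpl26 (0.59 ± 0.23), Rpl30 (0.51 ± 0.19), Rplp0 (0.51 ± 0.10) and Rps9 (0.50 ± 0.12). At the other end were Rpl32l (-0.88 ± 0.87) and Rpl7a (-0.11 ± 0.29), the only members with a negative value.

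Markers of several cell types moved with the members, and neuron markers moved the opposite way. Summed neuron markers were 7566 and 8308 CPM in sham, 2735 CPM in 6-OHDA and 6655 and 5631 CPM in 6-OHDA+NDST3, and 10 of 10 of them fell with the lesion. Microglia markers, of which 7 of 8 rose with the lesion, went from 391 and 298 CPM to 2324 CPM and were 807 and 1330.0 CPM with NDST3. Astrocyte markers (5 of 8 rose) went from 5166 and 4229.9 CPM to 11450.4 CPM and to 6513 and 7282 CPM with NDST3. Monocyte or macrophage markers (4 of 7 rose) went from 207 and 47.6 CPM to 2973 CPM and to 663 and 1134 CPM with NDST3. Fibroblast or mural markers (8 of 10 rose) stood at 1702 CPM in 6-OHDA against 278 to 549.7 CPM in the other 4 libraries, and red blood cell markers (5 of 5 rose) at 1817 CPM against 349 to 711 CPM. Neutrophil markers, of which 3 of 7 were tested and all 3 rose, went from 11.5 and 7.92 CPM to 105 CPM and to 35.1 and 64.7 CPM with NDST3. Other lists changed less. T cell markers (5 of 10 tested) had 5.47 and 5.05 CPM in sham, 6.25 CPM in 6-OHDA and 5.02 and 8.24 CPM with NDST3. B cell markers (5 of 8 tested) had 32.8, 27.2, 26.0, 27.2 and 19.3 CPM in the same order. Oligodendrocyte markers had 14806, 13977, 17131, 15686 and 12141 CPM, and endothelial markers 322, 278, 427, 253 and 286 CPM. The part of any of these cells in the members' rise was not tested.

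Length and mitochondrial reads moved as well. With the lesion, 18.8% of all genes tested were called higher and 17.1% lower. The members' median transcript length, taken from the ratio of count to FPKM, was 786 nucleotides, and 56 of the 82 were under 1000. Among the 10% of genes with the shortest transcripts, 396 of 1930 rose with the lesion and 95 fell, with a median log2 fold change of 0.33; without ribosomal protein genes and their pseudogenes these were 309 and 95 of 1761, with a median of 0.25. The 10% with the longest transcripts had a median of -0.30. Among genes in both the shortest and the most abundant 10%, and not ribosomal, 20 of 61 rose and 10 fell, with a median of 0.10. The nuclear subunits of oxidative phosphorylation, whose median length was 766 nucleotides, had a negative median of -0.21. Of these 87 genes 2 were higher and 15 lower, the latter a share near that of all genes. Among the called genes of this list the largest changes were those of Cox4i2 (1.24 ± 0.35), Cox11 (-0.87 ± 0.15), Cox10 (-0.68 ± 0.18) and Ndufv1 (-0.67 ± 0.15). Mitochondrially encoded mRNAs made up 4.98% and 4.39% of counts in sham, 6.15% in 6-OHDA and 5.42% and 4.28% in 6-OHDA+NDST3. Whether length or RNA quality took part in the members' values was not tested.

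Several rows differed more between libraries of 1 group than between groups. Rpl29, a large subunit protein, had 436 and 3709 counts in sham, 704 counts in 6-OHDA and 3960 and 481 counts in 6-OHDA+NDST3. The second sham and first 6-OHDA+NDST3 libraries were high and the other 3 low. The same libraries were high in the likely pseudogene row Rps3a2, with 322, 2685, 619, 2890 and 544 counts in the order above, and in Rps3a3, with 30, 2462, 34, 2529 and 43 counts. Rpsa-ps10 followed the same order (165, 7042, 326, 7138 and 249 counts), and Rps24-ps3 the reverse (1796, 23, 2883, 26 and 2372 counts). Rpl29 and both -ps rows were chosen for this account after their values were seen. The parent genes moved the opposite way: Rps3a1 was lower in the second sham and first 6-OHDA+NDST3 libraries, at 187 and 228 CPM, and so was Rpsa, at 346 and 399 CPM. Added to its pseudogene rows, Rps3a1 came to 272 and 256 CPM of the unscaled total in sham, 452 in 6-OHDA and 316 and 349 in 6-OHDA+NDST3, and Rpsa to 471, 445, 745, 522 and 503, so that the libraries of each group drew closer. Of the 82 members, 2 differed by more than 1 on the log2 scale between the sham libraries and 2 between the 6-OHDA+NDST3 libraries, as did 7.68% and 8.77% of all genes.

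**Figure D2:**
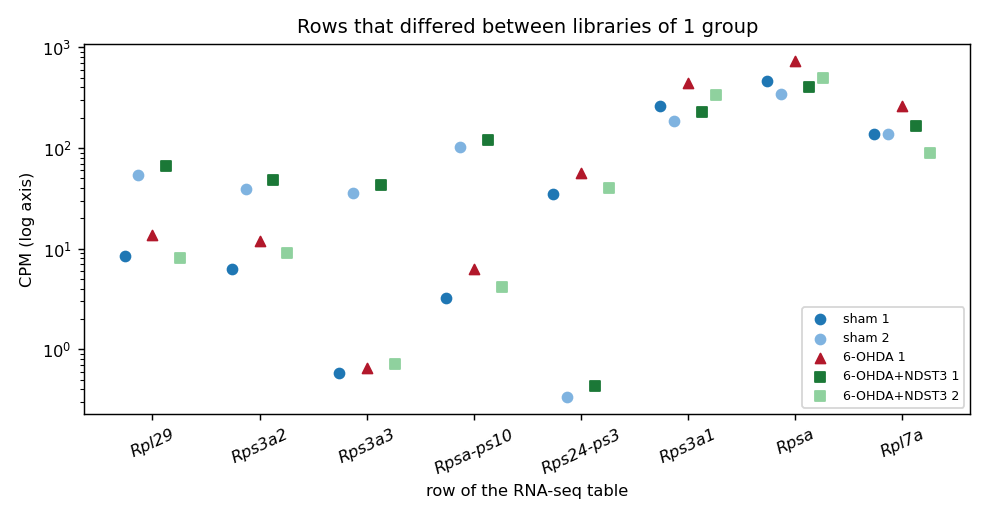
CPM (log axis) of 8 rows of the RNA-seq table in each of the 5 libraries, with circles for sham, a triangle for 6-OHDA and squares for 6-OHDA+NDST3. Rpl29, Rps3a2, Rps3a3 and Rpsa-ps10 are high in sham 2 and 6-OHDA+NDST3 1 and low in the other 3 libraries, Rps24-ps3 shows the reverse, and Rps3a1 and Rpsa are lowest in those 2 libraries.

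The 5 likely pseudogene rows within the rule gave 0 calls in any comparison. Besides Rps3a2 (-0.92 ± 1.38 in 6-OHDA against sham) and Rps3a3 (-4.78 ± 3.50), they were Rpl6l (0.52 ± 0.26), Rps12l1 (1.44 ± 0.48, adjusted p = 0.075) and Rps4l (-0.87 ± 0.30, adjusted p = 0.080). Rps4l, with 16.4 and 13.6 CPM in sham, 8.23 CPM in 6-OHDA and 15.3 and 10.3 CPM in 6-OHDA+NDST3, was lowest in the 6-OHDA library. Outside the rule, 102 rows with a -ps symbol were tested. With the lesion 29 rose and 0 fell (median 1.10), where 18.8% of all genes rose and 17.1% fell. With NDST3 against 6-OHDA 5 fell and 0 rose (median -0.65), where 6.59% of all genes fell and 9.06% rose. The share that fell with NDST3 was thus not above that of all genes. Reads of a gene and of its near-identical copies cannot be told apart where the counting splits them. With each member's count summed with those of its pseudogene rows, 76 members rose with the lesion and 51 fell with NDST3 against 6-OHDA, and 0 were called against sham, an alternative added after seeing the data.

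Other parts of the translation machinery were followed for comparison. With the lesion 18.8% of all genes tested rose and 17.1% fell, and with NDST3 against 6-OHDA 9.06% rose and 6.59% fell. The ribosomal proteins whose symbols the rule does not match rose together, with 4 of 4 called and a median of 0.72, among them Rack1, the 40S scaffold protein (1.25 ± 0.12), Fau, the precursor of S30 (0.93 ± 0.10) and Rpl36al (0.36 ± 0.10). Of 16 other mRNAs with a TOP tract, 8 rose and 0 fell, with a median of 0.35. The largest called changes were those of Pabpc1, the poly(A)-binding protein (1.96 ± 0.21, from 125 and 112 CPM in sham to 461 CPM), Tpt1 (1.18 ± 0.15), the elongation factor Eef1a1 (1.04 ± 0.19) and Eif3e (0.81 ± 0.18). Against 6-OHDA, 3 of the 16 fell with NDST3, among them Pabpc1 (-1.04 ± 0.21) and Tpt1 (-0.77 ± 0.15), and 2 of the 4 ribosomal proteins outside the rule, Rack1 (-0.79 ± 0.12) and Fau (-0.58 ± 0.10).

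Over all genes tested, 18.8% were called higher and 17.1% lower, which is the background for the lists of other translation factors. With NDST3 against 6-OHDA the background was 9.06% higher and 6.59% lower. Of 32 ribosome biogenesis genes, 2 rose and 6 fell with the lesion (median -0.0023). Ddx21, a nucleolar RNA helicase, rose by 0.99 ± 0.11, while Rrp12 (-0.94 ± 0.14), Wdr12 (-0.89 ± 0.14) and Nol6 (-0.78 ± 0.13) fell, and with NDST3 against 6-OHDA 4 genes rose and 1 fell, Ddx21 (-0.65 ± 0.11). Of 30 initiation factors, 5 rose and 2 fell (median 0.059). The RNA helicase Eif4a1 rose by 0.70 ± 0.18 and its paralog Eif4a2 fell with -0.77 ± 0.14. Eif2s1 rose by 0.54 ± 0.11 and Eif4g3 fell with -0.64 ± 0.13. The mitochondrial ribosomal proteins, which serve a separate ribosome, had 4 of 78 higher and 6 lower (median -0.095), with Mrps6 (1.27 ± 0.12), Mrpl33 (1.01 ± 0.14), Mrpl52 (0.69 ± 0.14) and Mrps34 (-0.60 ± 0.15) the largest of those called.

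For the regulators of translation too, the shares of all genes were 18.8% higher and 17.1% lower with the lesion. With NDST3 against 6-OHDA they were 9.06% higher and 6.59% lower. In the list of the mTOR axis and LARP1, 4 of 18 rose and 6 fell (median 0.043). Eif4ebp1 and Eif4ebp3, inhibitors of cap-dependent initiation, rose by 2.69 ± 0.33 and 1.17 ± 0.28, the transcription factor Myc by 1.59 ± 0.25 from 3.65 and 3.79 CPM to 11.2 CPM, and Mtor itself fell with -1.0 ± 0.13. Of 11 integrated stress response genes, 2 rose and 3 fell, the largest called changes being those of Trib3 (1.82 ± 0.34), Eif2ak2 (1.29 ± 0.19), Asns (-0.92 ± 0.13) and Chac1 (-0.71 ± 0.20). Of 10 genes of the p53 response, which a fault in ribosome assembly can set off, 5 rose and 1 fell (median 0.61), and among those called the largest changes were those of Cdkn1a (1.99 ± 0.30), Bbc3 (1.44 ± 0.24), Ccng1 (1.11 ± 0.14) and Bax (1.04 ± 0.12). Trp53 was 1 of the 5, and with NDST3 against 6-OHDA 3 of the 10 fell, Bax (-0.70 ± 0.12), Trp53 (-0.66 ± 0.14) and Ccng1 (-0.61 ± 0.14). Summed microglia and macrophage markers were higher in 6-OHDA than in sham and lower with NDST3 than in 6-OHDA, as given above. The part of these cells in the lists was not tested.

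**Figure D3:**
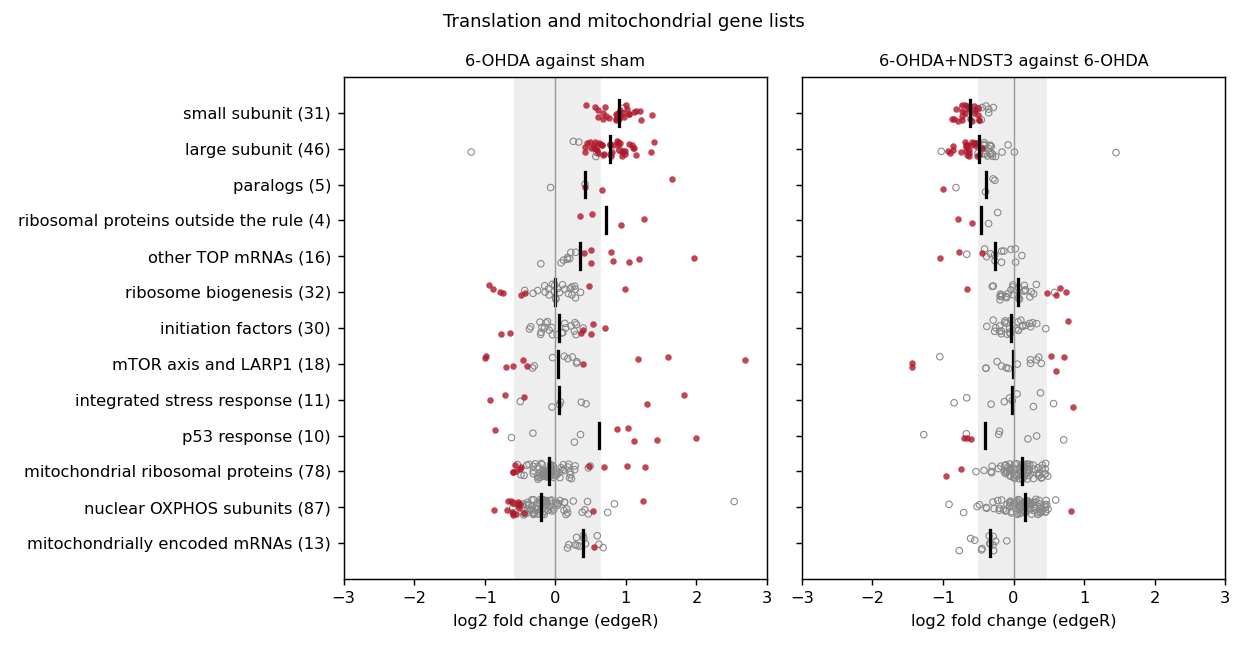
log2 fold changes from edgeR for the ribosomal protein genes and other gene lists (number of genes in brackets), in 6-OHDA against sham and in 6-OHDA+NDST3 against 6-OHDA. Each point is a gene, filled red where the adjusted p is under 0.05, the black bar is the list's median and the grey band spans the quartiles of all 19300 genes; both subunit lists lie to the right of the band's centre in the first comparison (medians 0.90 and 0.77) and to the left in the second (-0.61 and -0.50).

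In scRNA-seq, ribosomal protein mRNAs differed more between clusters than between the treated and untreated model. The table lists the mean log-normalized expression (natural log) of each gene in 9 clusters for the 6-OHDA and the 6-OHDA+NDST3 library, with 1 library per group and no sham values analysed here, so the values have no replicate check. Over the 77 small and large subunit genes, cluster medians in 6-OHDA ran from 1.84 in cluster 2 to 3.19 in cluster 4. Cluster 4, in which 10 of 10 T cell markers were above 0.1, was the highest for 48 genes, and cluster 9, in which 8 of 8 B cell markers were, for 27. Cluster 2, with astrocyte (median 0.65), oligodendrocyte (0.35) and choroid plexus (0.25) markers together, was the lowest for 54 genes, and cluster 1, with neutrophil markers, for 17. The second cluster with T cell markers, cluster 8, had a 6-OHDA median of 2.91, and the cluster with the highest microglia markers, cluster 6, one of 2.05. Neuron markers had a median of at most 0.034 in any cluster, so neurons are hardly covered by these means.

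Rps15a had the widest range over clusters, 1.95 natural-log units, from 1.84 in cluster 2 to 3.79 in cluster 4 as the mean of both groups. Rps24 (1.89) and Rpl13a (1.82) came next. Among the narrowest ranges were those of Rpl31 (0.70) and Rpl7a (0.93). The paralogs had other patterns. Rps27l was highest in cluster 2 (0.77), where most members were lowest, and lowest in cluster 6 (0.29). Rpl22l1 was highest in cluster 9 (1.77), like many members, and Rpl7l1 was between 0.25 and 0.42 throughout. Rpl3l reached 0.10 in cluster 1, and Rpl39l, listed only here, stayed at or under 0.023 in any cluster and group.

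Between groups, the mean with NDST3 was lower than in 6-OHDA for most of the 77 genes in 7 clusters. In cluster 1 it was lower for 74 genes, where 48.3% of all genes detected there were lower, with a median difference of -0.14 natural-log units and group medians of 2.07 and 1.88. In cluster 3 it was lower for 75 genes (background 44.1%, median -0.10), in cluster 8 for 64 (44.5%, -0.075), in cluster 2 for 67 (47.0%, -0.067) and in cluster 5 for 66 (53.2%, -0.064). Clusters 4 and 6 had smaller differences, with 53 genes lower (47.1%, -0.037) and 58 lower (44.1%, -0.027). Cluster 7, with endothelial markers, had 48 of the 77 genes higher, a share near that of all genes (background 60.2%) and a median of 0.012. Cluster 9 went the other way, with 70 genes higher (background 43.2%), a median difference of 0.15 and group medians of 3.08 and 3.20. The largest difference of a single gene was that of Rpl36 in cluster 9, from 2.35 to 2.78. All genes with a mean of at least 1, which include members, had median differences from -0.040 in cluster 8 to 0.018 in cluster 9. These were smaller in size than the members' in every cluster but cluster 7 (0.015 against 0.012). Theirs was -0.010 in cluster 1 and -0.035 in cluster 3, and had the sign of the members' median in every cluster. The values of 1 library's cells share depth and composition. The part of these, or of expression level, in the common direction of the members was not tested.

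**Figure D4:**
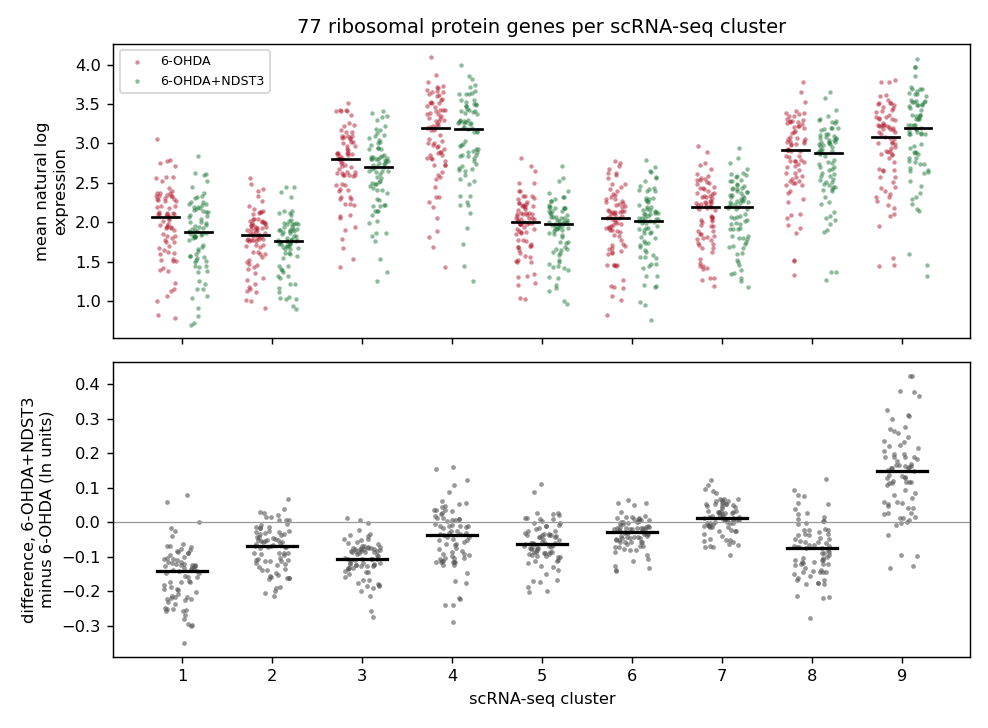
Upper panel, mean natural-log expression of the 77 small and large subunit genes in each of 9 scRNA-seq clusters, for the 6-OHDA and the 6-OHDA+NDST3 library; lower panel, the difference of the 2 for each gene, with black bars at the medians. Levels are highest in clusters 4 and 9 and lowest in cluster 2, and the median difference is 0.15 in cluster 9 and -0.14 in cluster 1.

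At the chromatin, H3K27ac, a mark of active promoters and enhancers, moved in both directions in regions named for the members. Names and distances are the authors'. For 9080 H3K27ac regions a GRCm38 start of the named gene was found on the same chromosome. Only 3.81% of these lay within 2000 bases of it, so which gene a region belongs to, or which build its coordinates use, is uncertain. The table gives 1 column of tag signal per group for 2 libraries, so no replicate spread can be had, and ratios were taken after a pseudocount of 1. Of 74 regions named for members, all within 1 kb of a start by the authors' distances, 33 were higher in 6-OHDA than in sham and 38 lower. Of all regions, 57.9% were higher. The median log2 ratio was -0.044, against 0.13 over all regions, and 5 regions were at least 2-fold higher and 3 at least 2-fold lower (background 7.77% and 4.52%). These values hold only for the regions that the deposited table kept, none of which is lower with NDST3 than in 6-OHDA. The region named for Rps13 with the shortest listed distance had a tag signal of 2.39 in sham, 11.4 in 6-OHDA and 19.5 in 6-OHDA+NDST3 (log2 ratio of 6-OHDA to sham 1.87). The other Rps13 region had a log2 ratio of -0.24. A region named for Rps6 had 7.81, 27.1 and 65.1 (1.67), and the other Rps6 region had a log2 ratio of 0.42. Rpl35a followed with a log2 ratio of 1.37. Among the lowest, Rps15a went from 23.6 to 8.95 (-1.31) and a region of Rpl29 from 12.1 to 5.45 (-1.02). The other Rpl29 regions had log2 ratios of 0.20 and 0.025. Among the members with the largest mRNA rise, the Rpl39 region had a log2 ratio of 0.93 (7.07 to 14.4) and both Rps27l regions were slightly lower (-0.32 and -0.19).

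With NDST3 over 6-OHDA, the members' median log2 ratio was 0.38, against 0.39 over all regions. No region of any gene in the deposited table is lower with NDST3 than in 6-OHDA, and 425 are equal, so that the direction is fixed by the table and is no result. The ratios of both groups to sham come from the same regions and share any such selection. Its part in those ratios was not tested. Among the largest ratios of single regions were those of Rps23 (1.42) and Rps6 (1.24). The smallest were those of Rpl10a and Rpl13a, each with a region of equal signal in both groups, and Rpl7 (0.012). Over sham, the median with NDST3 was 0.38 for the members and 0.53 for all regions. The largest log2 ratios of single regions were those of Rps6 (2.91), Rps13 (2.59) and Rps7 (2.02). The lowest were those of Rpl13a (-0.74), Rpl29 (-0.72) and Rps20 (-0.69). Other regions of these genes had 0.65 (Rps6), -0.20 (Rps13), -0.069 and 0.93 (Rpl13a), and 0.30 and 0.30 (Rpl29). Column totals rose in the same order, 190559 in sham, 206326 in 6-OHDA and 288173 in 6-OHDA+NDST3, and their part in the ratios was not tested.

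**Figure D5:**
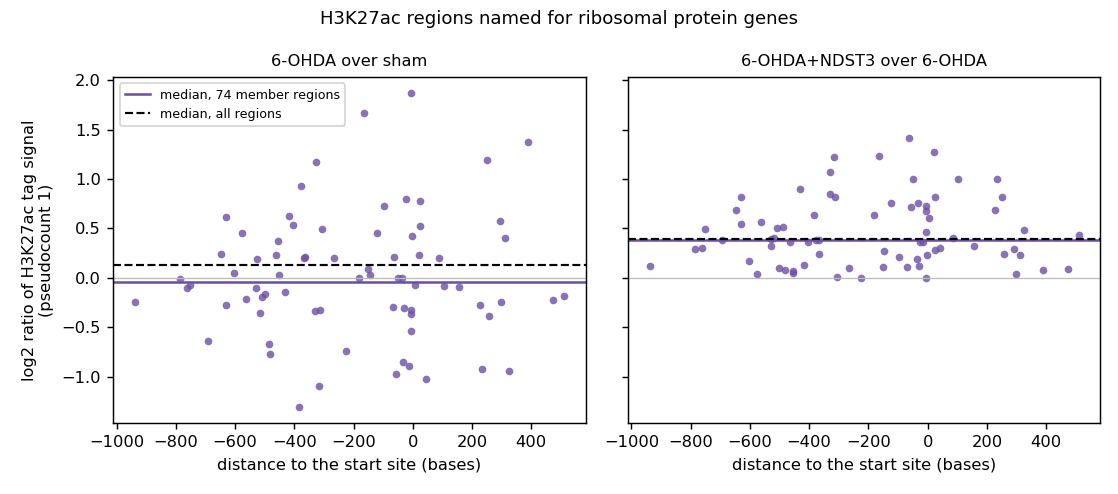
log2 ratio of H3K27ac tag signal (pseudocount 1) against the authors' distance of the region from the start site in bases, for the 74 regions named for ribosomal protein genes, in 6-OHDA over sham and in 6-OHDA+NDST3 over 6-OHDA. The member medians (solid lines, -0.044 and 0.38) lie below or on the medians of all regions (dashed lines, 0.13 and 0.39), and no point of the right panel is below 0 because no such region is in the table.

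ATAC-seq, which reads open chromatin and had 1 library per group, listed regions named for 5 members. These names or coordinates are uncertain too, since only 10.5% of the 2570 ATAC regions with such a start lay within 2000 bases of it. Rps16 had a tag signal of 172 in sham, 252.5 in 6-OHDA and 346 in 6-OHDA+NDST3, Rpl12 had 27.8, 33.8 and 67.4, and Rpl30 had 334, 363 and 364. Rps7 went from 21.5 to 30 and 23.2, and the likely pseudogene Rps4l from 8.82 to 4.50 and 21.9. The first 4 were higher in 6-OHDA than in sham (background 57.7%) and 4 of the 5, all but Rps7, were higher with NDST3 than in 6-OHDA (background 58.9%), counts that are too small for a comparison with all regions.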

How the data were processed

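RNA-seq reads of poly(A)-selected, stranded libraries were aligned to mm10 by the authors with HISAT2 and assembled and quantified with StringTie, and gene counts were deposited with FPKM and TPM values that the authors computed. FPKM was used for levels per length and for limma, and TPM was not used. The scRNA-seq table holds the authors' mean per cluster of natural log values, per the methods normalized to a fixed total per cell, with 2 of 3 groups. The authors removed cells with very many detected genes to limit multiplets, and no doublet step was added here. CUT&RUN and ATAC-seq tables hold tag signal per region deposited by the authors, with a normalization not stated. CUT&RUN has 1 column per group for 2 libraries, and how the column was made from them is not stated. Bowtie, Trim Galore, Cell Ranger and bcl2fastq are named in the submitters' processing notes.

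From the counts, genes were filtered with filterByExpr, scaled with TMM (factors 0.979 to 1.02) and tested with edgeR 4.0.16 (glmQLFit and glmQLFTest, R 4.3.3) in 1 fit over the 5 libraries, with 2 residual degrees of freedom and Benjamini-Hochberg adjustment over all 19300 genes. SE is the absolute log2 fold change divided by the square root of F. DESeq2 1.42.0 and limma 3.58.1 (pseudocount 1) were alternatives, and the edgeR script was tested on simulated data. Chromatin ratios used regions with a signal of at least 1 and a pseudocount of 1. scRNA-seq backgrounds used genes with a mean above 0.1. A GRCm38 start of the named gene on the same chromosome was found for 9080 H3K27ac and 2570 ATAC regions. Only 3.81% and 10.5% of these lay within 2000 bases of it. Which gene a region belongs to, or which build its coordinates use, is therefore uncertain. No region coordinates or sequences are given, and names and distances are the authors'.

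The members and lists were chosen with earlier results of these data known. Named were the 5 members with the largest called change in each direction (or of all where fewer were called), the 3 highest and lowest by FPKM, all paralogs and likely pseudogenes, up to 4 called genes per list, and the 3 extremes in scRNA-seq and chromatin tables. Some genes that this rule names are not reported here. Same-numbered libraries did not deviate together (correlation -0.43), so replicate numbers were not used for pairing.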

Additional observations from a re-analysis of the deposited data

Results flagged for a closer look

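In scRNA-seq, the median difference of the 77 small and large subunit genes (NDST3-treated less untreated) had opposite signs in cluster 9, with B cell markers (0.15 natural-log units, 70 genes higher), and cluster 1, with neutrophil markers (-0.14, 74 genes lower). Each group holds 1 library, so the difference between the clusters was not tested.

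Among pseudogene rows with a -ps symbol, which lie outside the comparisons of the members, 29 of 102 were called higher in 6-OHDA than in sham by edgeR and 0 lower. Of all genes tested, 18.8% were called higher and 17.1% lower. Near-identical copies can share reads with each other and with the members, so these rows are not independent of each other or of the members.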

How the results depend on the processing

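The members' median log2 fold change kept its sign in all 19 alternatives of each RNA-seq comparison, but the counts of calls did not hold. In 6-OHDA against sham, 73 calls became 35 with a replicate block (72 at an unadjusted p under 0.05), with which calls over all genes went from 6916 to 1796, and 0 to 76 when 1 library was left out, with 0, also over all genes, without either sham library. The median of 0.84 became 0.87 with a mean of at least 100 counts and 0.80 to 0.88 when 1 library was left out. In 6-OHDA+NDST3 against 6-OHDA, 46 calls became 0 with the compared groups alone (60 at an unadjusted p under 0.05) and 0 with a replicate block (52), both with 0 over all genes, and 0 to 43 when 1 library was left out, with 43 without the second 6-OHDA+NDST3 library. DESeq2 gave 63 calls and limma 33. The median there was -0.60 to -0.52 with 1 library left out. Against sham, 0 calls became 9 with DESeq2, and the median was 0.23 to 0.31 with 1 library left out. Replicate numbers did not pair the libraries. Crossing them, chosen after seeing the data, gave 77, 59 and 5 calls in the order above, with medians of 0.80 and -0.50 in the first pair. The cause of these changes was not tested. The median of all genes moved by at most 0.0439 on the log2 scale from its value without the alternative. The scRNA-seq medians kept their sign under every alternative run, and the chromatin medians did with a pseudocount of 0.1. The filter on signal removed no member region, so leaving it out could change nothing. In the 28 member regions within 200 bases of a start by the authors' distances, the H3K27ac median of 6-OHDA over sham was 0.0. All deposited regions lie within 1 kb of a start by the authors' distances, so every region in place of promoter regions was not run. The 6-OHDA group has 1 RNA-seq library, scRNA-seq and ATAC-seq have 1 per group and CUT&RUN has 1 column per group, so these have no spread of their own. Depth limits Rpl3l and Rpl32l, which had at most 20 and 18 counts.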
